A study of Rattus norvegicus and Bos taurus with 12 samples.

Results

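The actin isoforms and the smooth muscle actin binders were followed in rat heart muscle cells and in calf heart fibroblasts by RNA sequencing. The genes were chosen by symbol and comprised the 6 actins Acta1, Actc1, Acta2, Actg2, Actb and Actg1, the actin binders Tagln, Cnn1 and Cald1, and the LIM protein Fhl1. All 10 were among the 7052 genes listed for the myocytes, and 3 of them (ACTA2, CNN1 and FHL1) were among the 2115 listed for the fibroblasts. Both lists hold only genes that the authors had selected for a difference between the groups, so that being listed is itself a result of the same contrast. The other 7 symbols were not listed for the fibroblasts, which does not show that their expression was equal in the groups.

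In the first experiment, adult rat ventricular myocytes (ARVM) of Sprague Dawley rats were compared as freshly isolated cells and after 7 days in conditioned medium of fibroblasts from calves with pulmonary hypertension (PH-CM). The freshly isolated libraries are called con4, con5 and con6 after their labels, the PH-CM libraries ha2, ha209 and ha211, and values are given in this order. In the second, right ventricular fibroblasts (Cfib) of neonatal calves were compared between control animals at ambient altitude (CO) and animals made hypertensive in the pulmonary circulation by reduced atmospheric pressure (PH), with 3 libraries in each group. These fibroblasts had been grown in serum and then held without it before harvest. The sample labels describe the treatments instead as serum of low or high altitude cows, and the group names used here follow the study's methods. No genetic alteration is stated for either species, and the breed of the calves is not given in the sources used here. Per the paper, the fibroblast libraries of each group came from 3 animals. For ARVM nothing states that the libraries of a group came from separate animals, so that p-values there measure the spread between these libraries, which may be technical. PH-CM libraries differ from freshly isolated ones in the medium and in the time in culture together. The effects of these cannot be told apart, because no library of ARVM kept in control medium was analysed here.

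Actin filaments are built from closely related isoforms. Cardiac and skeletal α-actin form the thin filaments of the sarcomere, the α and γ smooth muscle actins form the contractile filaments of vessel and gut walls, and the β and γ cytoplasmic actins form the cell cortex and stress fibers. The α smooth muscle actin (α-SMA), transgelin, calponin and caldesmon are the classical contractile markers of smooth muscle and of myofibroblasts, and their genes and those of the sarcomeric actins are known targets of serum response factor, which binds the CArG box. The coding sequences of the actins are similar, the cytoplasmic actins also have processed pseudogenes, and how shared reads were assigned is not given in the sources used here. Values of single isoforms are therefore uncertain to that degree.

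The upstream sequences of 4 actins that moved in opposite directions are shown because they hold CArG boxes or near matches to it. They are RefSeq sequences of the rat GRCr8 assembly, cover 250 bases up to the base before a transcript start, and read 5′ to 3′. All 4 genes lie on the minus strand. Capitals mark the pattern CCNNNNNNGG in which all 6 inner bases are A or T (a CArG box) or in which 1 of them is not. The pattern reads alike on both strands.
Acta2, chr1:241172504-241172753: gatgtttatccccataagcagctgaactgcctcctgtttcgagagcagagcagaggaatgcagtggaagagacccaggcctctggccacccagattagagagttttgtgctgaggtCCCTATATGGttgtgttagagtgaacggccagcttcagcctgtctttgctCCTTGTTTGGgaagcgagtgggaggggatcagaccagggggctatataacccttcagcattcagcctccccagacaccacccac
Acta1, chr19:68784195-68784444: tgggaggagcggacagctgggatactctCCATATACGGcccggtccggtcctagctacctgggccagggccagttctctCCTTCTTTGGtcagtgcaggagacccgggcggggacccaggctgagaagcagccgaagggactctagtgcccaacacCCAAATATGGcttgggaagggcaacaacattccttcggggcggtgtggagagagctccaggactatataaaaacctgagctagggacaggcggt
Actc1, chr3:121271828-121272077: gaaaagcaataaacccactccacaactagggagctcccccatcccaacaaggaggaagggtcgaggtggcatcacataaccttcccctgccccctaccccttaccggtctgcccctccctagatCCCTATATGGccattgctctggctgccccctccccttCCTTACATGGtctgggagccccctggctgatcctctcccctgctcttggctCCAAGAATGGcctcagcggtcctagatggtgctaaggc
Actg1, chr10:106120952-106121201: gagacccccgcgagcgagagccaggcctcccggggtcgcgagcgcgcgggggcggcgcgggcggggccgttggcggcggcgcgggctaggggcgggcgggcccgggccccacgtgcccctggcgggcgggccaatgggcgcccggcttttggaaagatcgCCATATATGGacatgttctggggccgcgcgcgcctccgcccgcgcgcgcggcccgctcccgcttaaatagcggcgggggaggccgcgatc

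A window was given for 8 of the 10 genes, with 10 windows in all, and none for Actb and Tagln. A complete CArG box was found in Acta1 (CCAAATATGG, from 94 to 85 bases upstream of the start), in Actg1 (CCATATATGG, from 90 to 81 bases upstream) and in 1 of the 2 windows of Fhl1 (CCTAAAATGG, from 102 to 93 bases upstream). Of all 33469 rat windows, 1.5% held a complete box. Acta2 held 2 near matches, of which CCCTATATGG lay 134 to 125 bases and CCTTGTTTGG 84 to 75 bases upstream. Actc1 held 3, CCCTATATGG, CCTTACATGG and CCAAGAATGG, and its first is the same 10 bases as that of Acta2. Acta1 held CCATATACGG and CCTTCTTTGG in addition. At least 1 near match was present in 6.84% of all windows, and a box or a near match in 8.08%. No match was found in the windows of Actg2, Cnn1 and Cald1. The windows of Actg2, Cald1 and Fhl1 lie inside the annotated gene, the Fhl1 window with the box included. Boxes and near matches were thus present upstream of actins that rose in PH-CM and of actins that fell, and a match of letters is a description and not a site of binding.

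In ARVM kept in PH-CM, the sarcomeric actins Acta1 and Actc1 and the LIM protein Fhl1 were lower than in freshly isolated ARVM, whereas both smooth muscle actins, both cytoplasmic actins and the binders Tagln, Cnn1 and Cald1 were higher. The changes ran from a 49.8-fold fall of Acta1 to a 263-fold rise of Actg2. All 10 genes passed the test, 7 higher and 3 lower, and their groups did not overlap. Of all 7052 listed genes, 97.6% passed, 53.9% higher and 43.7% lower, and the groups of 100.0% did not overlap, so that a call is no particular property of these genes. The size of the changes was larger than in the table as a whole, with a median absolute log2 fold change of 4.17 over the 10 genes beside 0.96 over all listed genes. Values are read counts divided by 1 size factor for each library (normalized counts), not scaled by gene length. The test was limma on log2(normalized count + 1), and p-values were adjusted by the Benjamini-Hochberg method across the 7052 listed genes, with a call at 0.05. The listed genes held between 12122463 and 18842171 reads per library. The median log2 fold change over all listed genes was 0.37 as deposited. Rescaling the libraries to equal totals raised log2 fold changes by a median of 0.42 over the listed genes. The share of higher genes among those called went from 55.2% to 71.6%. Of the 7052 genes, 5598 were called in place of 6882, and none of the 10 genes changed direction or lost its call.

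**Figure D1:**
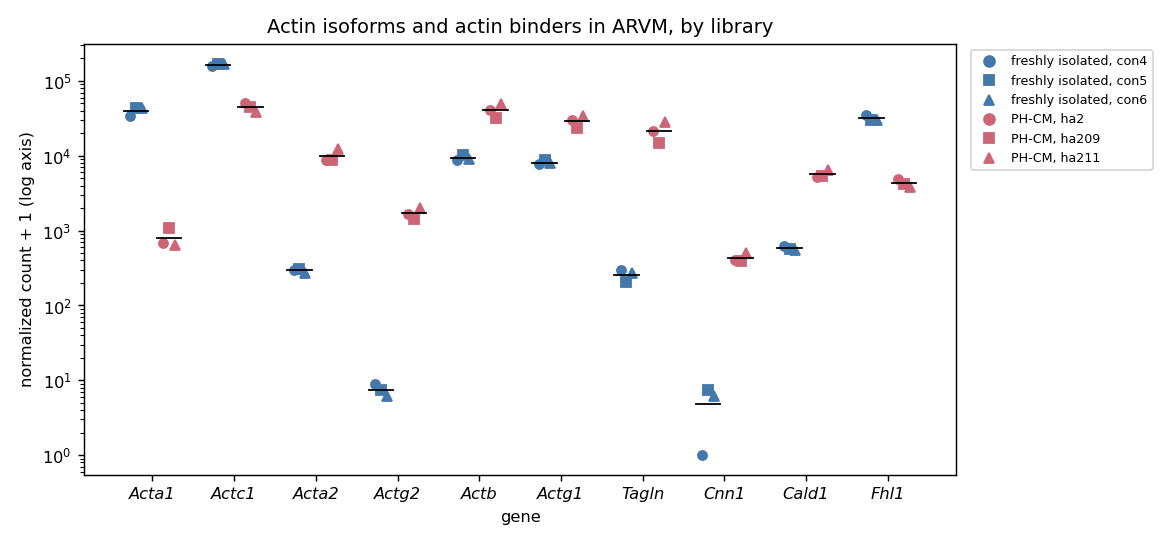
Normalized counts (plus 1, log axis) of the 10 genes in each ARVM library, with freshly isolated libraries in blue, PH-CM libraries in red and a black line at the mean of each group of 3. Acta1, Actc1 and Fhl1 lie lower in PH-CM and the other 7 genes higher, with no overlap between groups, and the lowest blue circle of Cnn1 is a library with 0 reads.

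Acta1, the α-actin of skeletal muscle that the heart also makes, lies at chromosome 19, 68781168 to 68784194 (GRCr8, as for all positions that follow). Its normalized counts were 34003, 42826 and 43237 in freshly isolated libraries con4, con5 and con6, and 681, 1082 and 647 in PH-CM libraries ha2, ha209 and ha211. The lowest control library was thus far above the highest PH-CM library, library ha209. The mean fell from 40022 ± 5217 to 804 ± 242 (SD, n = 3 each), which is 49.8-fold lower. The log2 fold change was −5.67 (SE 0.19, limma adjusted p = 2.22e-07) and ranked 19 among the falls of the listed genes.

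Actc1, the cardiac α-actin and the main actin of the adult heart sarcomere, lies at chromosome 3, 121266291 to 121271827. Counts were 159237, 166589 and 170605 in freshly isolated ARVM and 50551, 45214 and 38709 in PH-CM. Its groups were likewise apart, but Actc1 stayed among the most abundantly read genes of the group in PH-CM. The mean fell from 165477 ± 5765 to 44825 ± 5931, 3.69-fold lower (log2 fold change −1.89, SE 0.13, limma adjusted p = 6.17e-06). Relative to Actc1, Acta1 fell further, since the log2 ratio of Acta1 to Actc1 went from −2.06 to −5.83. In bulk RNA, fewer cells of a type and less RNA per cell cannot be told apart, here and in all results that follow.

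Acta2, the gene of α-SMA, lies at chromosome 1, 241159723 to 241172503. Counts were 299, 307 and 274 in freshly isolated ARVM and 8849, 8918 and 12255 in PH-CM. All PH-CM libraries were above all control libraries, and library ha211 was the highest. The mean rose from 293 ± 17.5 to 10007 ± 1947, a 34.1-fold rise (log2 fold change 5.07, SE 0.13, limma adjusted p = 1.01e-07).

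Actg2, the γ smooth muscle actin of the gut wall, lies at chromosome 4, 117579513 to 117604379. In freshly isolated ARVM it was near the limit of detection, with 5, 6 and 5 reads in libraries con4, con5 and con6, which are 7.91, 6.43 and 5.17 normalized counts. In PH-CM its counts were 1665, 1438 and 2033. Its rise was the largest of the 10 genes, from 6.50 ± 1.38 to 1712 ± 300 (263-fold, log2 fold change 7.84, SE 0.24, limma adjusted p = 1.35e-07), and ranked 13 among the rises of all listed genes. Because the control values rest on so few reads, the fold is imprecise, and the log2 fold change ranged from 6.69 to 8.23 over the settings tried.

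The cytoplasmic actins were well read in both groups. Actb, the β cytoplasmic actin (chromosome 12, 16776664 to 16779634), gave 8756, 10309 and 8976 normalized counts in freshly isolated ARVM and 41026, 31848 and 49399 in PH-CM. Its mean went from 9347 ± 840 to 40758 ± 8779, 4.36-fold higher (log2 fold change 2.11, SE 0.15, limma adjusted p = 8.48e-06). Actb is often used to scale expression measurements, and in these libraries it was not constant.

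Actg1, the γ cytoplasmic actin (chromosome 10, 106118106 to 106120951), gave 7677, 8673 and 7989 in freshly isolated ARVM and 29758, 23822 and 33601 in PH-CM. The mean went from 8113 ± 509 to 29060 ± 4926, 3.58-fold higher (log2 fold change 1.83, SE 0.12, limma adjusted p = 5.72e-06). Both cytoplasmic actins were thus highest in library ha211 and lowest in library ha209 among the PH-CM libraries, and both stood apart from the controls.

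Tagln, the gene of transgelin, a calponin-like protein that binds actin filaments (chromosome 8, 55121647 to 55127121), gave 296, 205 and 271 normalized counts in freshly isolated ARVM. In PH-CM it gave 21513, 14866 and 28241. The groups were far apart, and the spread within PH-CM was the widest of the risen genes, with a coefficient of variation of 31.0%. The mean went from 257 ± 47.2 to 21540 ± 6688, 83.8-fold higher (log2 fold change 6.35, SE 0.23, limma adjusted p = 2.79e-07).

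Cnn1, the gene of calponin, which binds actin filaments and slows the myosin ATPase in smooth muscle (chromosome 8, 28908437 to 28917099), had 0, 6 and 5 reads in freshly isolated libraries con4, con5 and con6. The 0 allows up to 3 reads, or 4.75 normalized counts, from counting error alone. In PH-CM its normalized counts were 399, 388 and 509. The mean went from 3.86 ± 3.41 to 432 ± 67.0, 112-fold higher (log2 fold change 6.91, SE 0.72, limma adjusted p = 5.84e-05). With 1 control library at 0, its standard error was the largest of the 10 genes, and its log2 fold change lay between 5.02 and 8.15 over the settings tried.

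Cald1, the gene of caldesmon, which links actin to myosin and tropomyosin (chromosome 4, 64232906 to 64414085), gave 628, 566 and 555 normalized counts in freshly isolated ARVM and 5253, 5299 and 6392 in PH-CM. Its mean went from 583 ± 39.7 to 5648 ± 645, 9.69-fold higher (log2 fold change 3.27, SE 0.09, limma adjusted p = 1.13e-07). Of the 3 binders it changed least. Cald1 also has non-muscle transcripts, which these gene values do not separate.

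Fhl1, the gene of a LIM-domain protein that is abundant in striated muscle and sits at the sarcomere (chromosome X, 139592794 to 139652290), gave 34677, 30436 and 30386 in freshly isolated ARVM. In PH-CM it gave 4965, 4194 and 3798. It was lower in every PH-CM library, and its direction was that of the sarcomeric actins and not that of the smooth muscle binders. The mean fell from 31833 ± 2463 to 4319 ± 593, 7.37-fold lower (log2 fold change −2.89, SE 0.11, limma adjusted p = 2.87e-07).

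The make-up of the actin reads was computed next, as the share of each isoform in the reads of the 6 actins of a library. These are shares of reads, not of molecules, because no gene lengths entered. The sarcomeric actins took 92.0%, 91.6% and 92.5% of actin reads in freshly isolated ARVM, and 38.7%, 41.2% and 28.8% in PH-CM libraries ha2, ha209 and ha211. The cytoplasmic actins took 7.83%, 8.30% and 7.34% in the controls and 53.4%, 49.6% and 60.7% in PH-CM. Sarcomeric reads thus made up nearly all actin reads before culture and the smaller part in each PH-CM library. The smooth muscle actins took 0.135 ± 0.0129% in the controls and 9.20 ± 1.26% in PH-CM.

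By isoform, the share of Actc1 went from 74.2 ± 1.53% to 35.6 ± 6.36% and that of Acta1 from 17.9 ± 1.46% to 0.650 ± 0.272%. Actc1 remained the isoform with the most reads in libraries ha2 and ha209, with 38.1% and 40.3%. In library ha211 Actb had more, 36.2% beside 28.3% for Actc1. The share of Actb went from 4.19 ± 0.312% to 31.8 ± 3.97%, that of Actg1 from 3.64 ± 0.168% to 22.8 ± 1.71% and that of Acta2 from 0.132 ± 0.0122% to 7.86 ± 1.15%. The 6 actins together gave 223260 ± 11561 normalized counts in freshly isolated ARVM and 127166 ± 13018 in PH-CM, 1.76-fold lower. Of the reads on all listed genes they took 1.18 ± 0.0792% in freshly isolated ARVM and 0.902 ± 0.0750% in PH-CM. This is a smaller fall, so its size depends on the scaling.

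**Figure D2:**
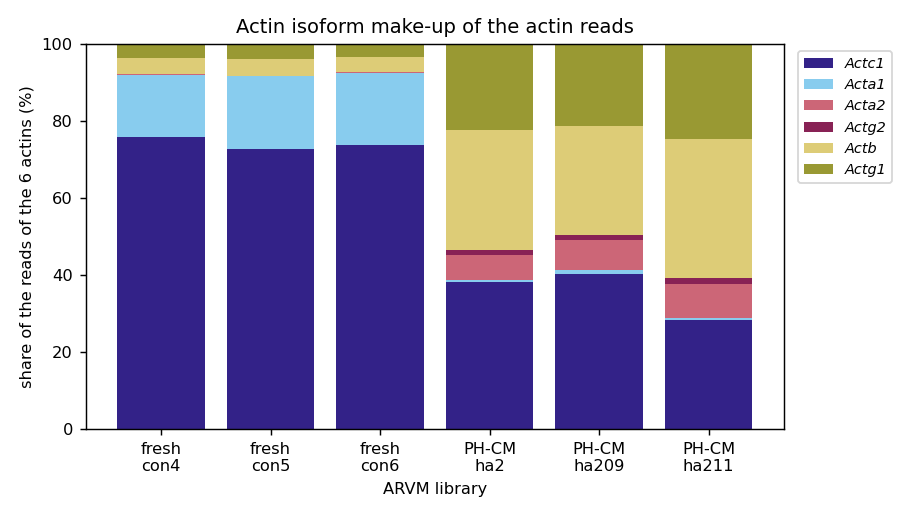
Share (%) of each isoform in the reads of the 6 actins, 1 stacked bar for each ARVM library. Actc1 and Acta1 fill 92.0 ± 0.487% of the control bars and 36.2 ± 6.56% of the PH-CM bars, where Actb and Actg1 fill 54.6 ± 5.68%.

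Ratios of 2 genes within a library carry no scaling between libraries, so they were computed for all 15 pairs of actins and for each binder and Fhl1 over Acta2. The groups did not overlap in any of the 19 ratios. For a fallen gene paired with a risen one this was fixed beforehand, since no listed gene overlapped between groups. The share among other gene pairs is not given here. An exact two-sided permutation test of 3 against 3 libraries cannot give a p below 0.1, which 18 ratios reached, and Cnn1 over Acta2 could not go below 0.2, since 1 control library had no read. No ratio can therefore pass a threshold of 0.05, and the values are given as a description.

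The ratio of Acta1 to Acta2 moved furthest among the ratios to Acta2, with log2 values of 6.83, 7.12 and 7.30 in freshly isolated ARVM and −3.70, −3.04 and −4.24 in PH-CM. The order of skeletal α-actin and α-SMA reads was thus inverted in every PH-CM library. Actc1 to Acta2 went from 9.14 to 2.17 on average, and Actc1 still had more reads than Acta2 in every library. Actc1 to Actb went from 4.15 to 0.15, with 0.30 in library ha2, 0.51 in library ha209 and −0.35 in library ha211, so that these isoforms were read about equally in PH-CM.

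Within the smooth muscle actins, Actg2 rose more than Acta2, since the log2 ratio of Acta2 to Actg2 went from 5.52 ± 0.25 to 2.54 ± 0.12, although the control values rest on 5 or 6 reads of Actg2. The smallest shift of all 19 was that of the cytoplasmic actins. Actb to Actg1 was 0.19, 0.25 and 0.17 in freshly isolated ARVM and 0.46, 0.42 and 0.56 in PH-CM, a mean shift of 0.28. The cytoplasmic actins thus rose nearly together, with Actb slightly ahead in every PH-CM library.

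Among the binders, Tagln rose more than Acta2 and Cald1 less. Tagln to Acta2 was −0.02, −0.59 and −0.02 in the controls and 1.28, 0.74 and 1.20 in PH-CM, a mean shift of 1.28. Cald1 to Acta2 was 1.07, 0.88 and 1.02 in the controls and −0.75, −0.75 and −0.94 in PH-CM, a shift of −1.80. The reads of Cald1 therefore exceeded those of Acta2 before culture and were fewer after it. Cnn1 to Acta2 went from −5.65 over 2 control libraries to −4.53 in PH-CM. Fhl1 to Acta2 went from 6.76 to −1.20.

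**Figure D3:**
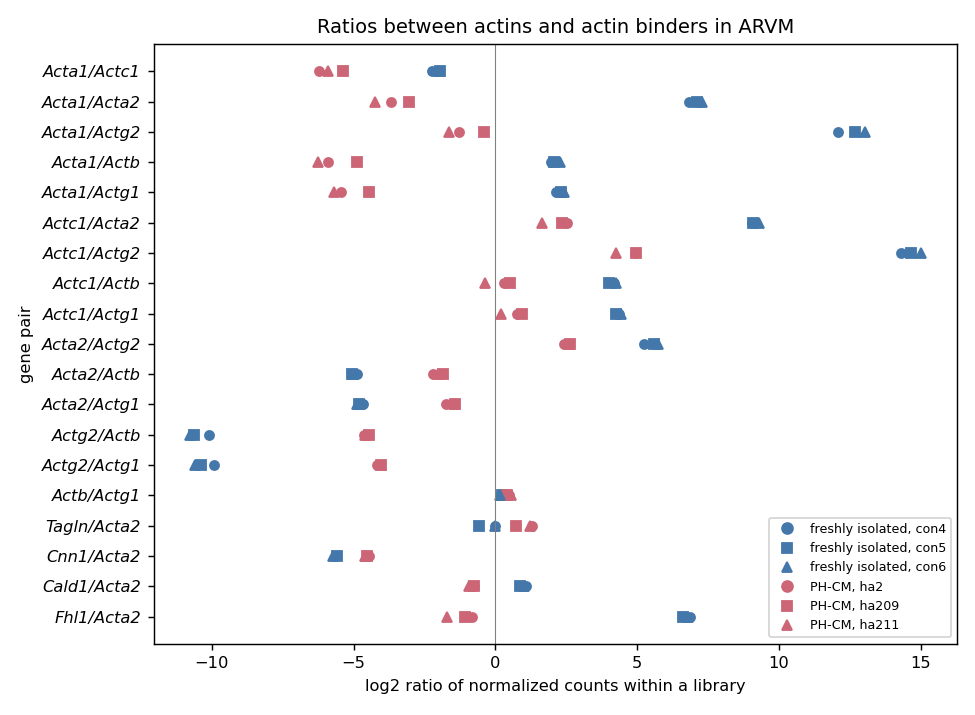
Log2 ratio of normalized counts within a library for 19 gene pairs (rows), with freshly isolated ARVM in blue, PH-CM in red and a grey line where both genes have equal counts. The pair Acta1 and Acta2 crosses the line, from a mean of 7.08 to −3.66, while Actb and Actg1 move by 0.28.

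Among PH-CM libraries, ha211 lay furthest from the controls in these genes, while the order of ha2 and ha209 varied. The share of all listed genes with ha211 at the extreme is not given here. Library ha211 was the highest of its group in 7 of 7 risen genes and the lowest in 3 of 3 fallen genes, and library ha209 was the lowest in 5 of 7 risen genes. Without library ha211 every call remained. Summed markers of cell types also differed between the groups, and their order among PH-CM libraries was not the same in all lists. Beside their counts, 53.9% of all listed genes were called higher and 43.7% lower. The fibroblast markers (12 of 12 listed, all 12 higher, among them Col1a2, Col3a1 and Vim) summed to between 4405 and 5425 normalized counts in freshly isolated ARVM. In PH-CM libraries ha2, ha209 and ha211 they summed to 116259, 100520 and 147650, so library ha211 was again the highest and ha209 the lowest. The cardiac muscle markers (11 of 12 listed, all lower, among them Mb, Myh6 and Tnni3) fell from between 1650884 and 1686449 to 151763, 140596 and 126503, lowest in library ha211. The fibroblast sum was thus above the cardiac muscle sum in library ha211 and below it in ha2 and ha209.

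The markers of vascular smooth muscle and pericytes (11 of 12 listed, 7 higher and 4 lower, among them Myh11, Pdgfrb and Mcam) summed to between 7434 and 8502 in freshly isolated ARVM and to 12432, 13216 and 15066 in PH-CM. This list therefore did not move in 1 direction, and Vtn and Rgs5, which were named after their values were seen, fell by 2.37 and 1.36 on the log2 scale. Its members Myh11, Lmod1 and Smtn are counted again below among the smooth muscle contractile genes. Leukocyte markers (9 of 10 listed, all higher, with Lyz2, Adgre1 and Tyrobp) went from between 249 and 341 to between 7230 and 11080. Endothelial markers (10 of 10 listed, 1 higher and 9 lower, with Pecam1, Tie1 and Kdr) went from between 11105 and 13045 to between 4587 and 5360. Red blood cell markers (4 of 6 listed, all lower) went from between 2140 and 2548 to between 3.39 and 23.3, and Hba1, Hbb and Hbb-b1 had no read in PH-CM. With libraries rescaled to equal totals, 1 cardiac muscle, 1 smooth muscle and pericyte and 2 endothelial markers lost their calls. Of all 7052 listed genes, 5598 were called in that setting, in place of 6882. The part of other cell types in the changes of the actins and their binders was not tested.

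The other genes of the actin machinery were taken from 4 lists, of which genes the authors had not selected carry no value. All listed genes of these lists passed the test, as did 97.6% of the whole table, 53.9% higher and 43.7% lower. Of the smooth muscle contractile and serum response factor genes, 20 of 30 were listed, 12 of them higher and 8 lower. Their median log2 fold change was 0.75 beside 0.37 for the whole table. Lmod1, a nucleator of actin filaments in smooth muscle, went from 14.0 ± 6.88 to 354 ± 39.6 normalized counts (log2 fold change 4.69, SE 0.40, limma adjusted p = 2.01e-05). Tpm2, the β tropomyosin, went from 629 ± 21.8 to 10394 ± 1340 (4.04, SE 0.09, limma adjusted p = 8.83e-08). Tpm1, the α tropomyosin, which is the main form in heart muscle, fell from 171387 ± 86.8 to 19024 ± 1470 (−3.17, SE 0.09, limma adjusted p = 1.28e-07). The genes that fell were Csrp2, Des, Fhl2, Nexn, Pdlim3, Ppp1r12b, Synpo2 and Tpm1, of which Des, Fhl2, Nexn and Tpm1 are also well known in heart muscle.

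Of the genes for monomer binding, capping and severing, 22 of 26 were listed, 14 higher and 8 lower (median log2 fold change 0.49). Tmsb10, a thymosin that holds actin monomers, went from 3137 ± 116 to 31105 ± 6305 normalized counts (log2 fold change 3.29), and Capg, a filament capping protein, from 349 ± 39.5 to 3084 ± 391 (3.14). Twf2, a twinfilin, fell from 4839 ± 210 to 798 ± 67.3 (−2.60). Of the nucleation and elongation genes, 14 of 26 were listed, 10 higher and 4 lower (median 0.48). The formin Diaph3 went from 7.08 ± 6.46 to 155 ± 37.6 (4.91), Was, a nucleation promoter of blood cells, from 12.8 ± 7.12 to 46.1 ± 13.0 (1.91), and the sarcomeric formin Fhod3 fell from 7712 ± 310 to 1691 ± 199 (−2.19).

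Of the crosslinking and bundling genes, 14 of 20 were listed, 11 of them higher and 3 lower (median log2 fold change 1.27). Lcp1, the plastin of leukocytes, went from 103 ± 19.2 to 731 ± 115 normalized counts (2.82), and its rise stood beside that of the leukocyte markers. Flna, a filamin, went from 4818 ± 215 to 21654 ± 3762 (2.15), and Actn1, a non-muscle α-actinin, from 464 ± 74.7 to 1835 ± 169 (1.99). The fallen genes of this list were Actn2, the sarcomeric α-actinin, Flnc, the muscle filamin, and Msn. Actn2 was also counted among the cardiac muscle markers. With libraries rescaled to equal totals, 3 genes of the smooth muscle list, 2 of monomer binding and 2 of nucleation lost their calls. The counts higher and lower became 12 and 5 for the smooth muscle list, 14 and 6 for monomer binding, 10 and 2 for nucleation and 11 and 3 for crosslinking, and Arpc1a changed sign.

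By likeness of pattern, the genes closest to Acta2 among 6904 compared were Dok3, Rtn4rl2, Adcy2, RGD1562963 and Twist2. Likeness was the root-mean-square difference over the 6 libraries of log2(normalized count + 1), centred for each gene, and ran from 0.09 for Dok3 to 0.15 for Twist2. All 5 had no read in the 3 freshly isolated libraries and means between 27.3 and 34.0 normalized counts in PH-CM, so that their folds, and with them the likeness to Acta2, were set by the pseudocount of 1.

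In fibroblasts of PH calves, ACTA2 and FHL1 were higher and CNN1 was lower than in CO fibroblasts. All 3 genes passed the test, 2 higher and 1 lower, with groups that did not overlap. Of the 2115 listed genes 97.5% passed, 58.2% higher and 39.4% lower, and 100.0% did not overlap. The paper describes normalized counts, but the values show no common step within a library and look scaled by gene length, as FPKM or TPM are. Their unit was not settled, and the depth of the libraries is unknown. The median absolute log2 fold change of the 3 genes was 1.23, beside 0.72 for the table. The median log2 fold change of the table was 0.33. Rescaling by the median of ratios shifted log2 fold changes by a median of −0.27 over the listed genes. The share of higher genes among those called went from 59.6% to 49.2%. Of the 2115 genes, 1709 were called in place of 2063, and the 3 genes kept their directions and calls.

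ACTA2 had values of 78.1, 71.9 and 109.8 in CO libraries 1, 2 and 3 and of 197.1, 199.6 and 208.7 in PH libraries 1, 2 and 3. Every PH library was above every CO library, and CO library 3 was the highest of its group. The mean went from 86.6 ± 20.3 to 202 ± 6.09, 2.33-fold higher (log2 fold change 1.23, SE 0.15, limma adjusted p = 0.000425). This α-SMA gene is a defining marker of the myofibroblast, the contractile state of the activated fibroblast.

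FHL1, whose LIM-domain protein is also made by fibroblasts, had values of 55.7, 55.7 and 57.9 in CO and of 204, 195 and 194 in PH. The values varied little within either group. The mean went from 56.4 ± 1.26 to 198 ± 5.76, 3.50-fold higher (log2 fold change 1.79, SE 0.05, limma adjusted p = 2.05e-06), which ranked 130 among the rises of the listed genes.

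CNN1, the calponin gene, had values of 14.3, 19.7 and 20.1 in CO and of 9.70, 10.9 and 11.7 in PH. The lowest CO library was above the highest PH library by a small margin, 1.23-fold. The mean fell from 18.0 ± 3.20 to 10.8 ± 0.992, 1.68-fold lower (log2 fold change −0.68, SE 0.14, limma adjusted p = 0.00365). The call did not hold when the PH libraries were averaged into 1 sample (adjusted p = 0.0769). PH libraries varied less than CO libraries over all listed genes, with a median coefficient of variation of 5.01% beside 13.7%.

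**Figure D4:**
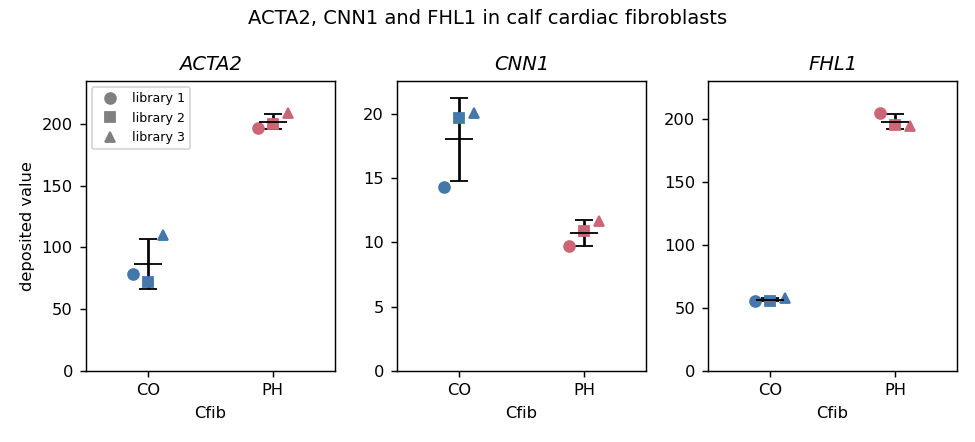
Deposited values of ACTA2, CNN1 and FHL1 in each CO (blue) and PH (red) fibroblast library, with axes from 0, a line at the mean and bars of 1 SD (n = 3 libraries). ACTA2 and FHL1 lie higher and CNN1 lower in PH, and CNN1 has the narrowest gap between groups.

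Since the unit was not settled, ratios of 2 genes within a library were compared between groups and levels were not ranked between genes. The log2 ratio of FHL1 to ACTA2 was −0.49, −0.37 and −0.92 in CO and 0.05, −0.03 and −0.11 in PH, a mean shift of 0.56. FHL1 thus rose more than ACTA2, with the highest CO library below the lowest PH library. CNN1 to ACTA2 was −2.45, −1.87 and −2.45 in CO and −4.34, −4.20 and −4.16 in PH, a mean shift of −1.98. Both ratios separated the groups, with p = 0.1 in the exact two-sided permutation test, the smallest that 3 against 3 libraries can give. For CNN1 to ACTA2 this was fixed beforehand, since neither gene overlapped between groups and their directions were opposite. It adds nothing to the values of the single genes. Calponin and α-SMA, which are both contractile markers, moved in opposite directions in PH fibroblasts.

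The smooth muscle and serum response factor list had 8 of 30 genes listed in Cfib, 5 of them higher and 3 lower (median log2 fold change 0.52, beside 0.33 for the table). Over all listed genes 58.2% were called higher and 39.4% lower. PDLIM3, a LIM protein that binds α-actinin, went from 0.337 ± 0.131 to 7.19 ± 0.579 (log2 fold change 2.62). PRKG1, the cyclic GMP-dependent kinase, went from 3.26 ± 1.91 to 7.97 ± 0.522 (1.20), and MYH11, the smooth muscle myosin heavy chain, from 1.92 ± 0.557 to 4.60 ± 0.197 (0.96). Log2 fold changes in Cfib were likewise taken of value + 1. At low values, as for PDLIM3 and MYH11, they are smaller than the printed means imply. The choice of the genes of largest change depends on this. Of the monomer binding, capping and severing genes, 4 of 26 were listed, 2 higher and 2 lower (median 0.32). GSN, the severing protein gelsolin, went from 146 ± 26.3 to 1289 ± 30.0 (3.15), LIMK1, a kinase that acts on cofilin, from 9.14 ± 1.58 to 17.1 ± 0.318 (0.84), and CAPZB, a capping subunit, fell from 189 ± 10.9 to 159 ± 2.60 (−0.24).

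For nucleation and elongation 2 of 26 were listed, both lower, with DIAPH3 at −1.49 and ACTR2, a subunit of the Arp2/3 complex, at −0.34 (log2 fold changes). For crosslinking and bundling 5 of 20 were listed, 4 higher and 1 lower (median 0.29). MARCKS was at 1.18, EZR at 0.29 and LCP1 at 1.02, the last lowered by the pseudocount (means 0.375 in CO and 1.80 in PH). When libraries were rescaled by the median of ratios or to equal totals, 2 of these 5 were called higher, 1 lower and 2, EZR and CTNNA1, not at all. Over all 2115 listed genes, 1709 were called with the median of ratios and 1935 with equal totals. With the median of ratios the median of the list fell to 0.0023 and CTNNA1 changed sign, and the smooth muscle list had 4 higher, 3 lower and 1 not called. The genes closest to ACTA2 in pattern among 1381 compared were GYPC, CLU, SLC38A5, LOC513767 and MMP23B, with root-mean-square differences between 0.07 and 0.12 over the 6 libraries.

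Markers beside these values in Cfib were as follows, where 58.2% of all listed genes were called higher and 39.4% lower. Of the fibroblast markers 4 of 12 were listed, all higher, with COL1A2, FBLN1 and POSTN, and their sum went from between 2005 and 2656 to between 6423 and 6721. Of the vascular smooth muscle and pericyte markers 6 of 12 were listed, all higher, and their sum went from between 29.1 and 33.1 to between 55.8 and 63.3, with SMTN, CSPG4 and LMOD1 the highest in value. With the median of ratios 5 of the 6 were called, and the lost call was that of LMOD1. LMOD1, MYH11 and SMTN were also counted in the smooth muscle and serum response factor list. ESAM was the only 1 of 10 endothelial markers listed and was lower, and 3 of 4 listed leukocyte markers were higher (FCER1G and CD68 among them) with CD14 lower. No cardiac muscle or red blood cell marker was listed, which does not show that they were absent. Their part in the changes of ACTA2, FHL1 and CNN1 was not tested.

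Set side by side, α-SMA was higher in both comparisons, with log2 fold changes of 5.07 in ARVM and 1.23 in Cfib. Calponin was higher in ARVM kept in PH-CM (6.91) and lower in PH fibroblasts (−0.68), and FHL1 was lower in ARVM (−2.89) and higher in PH fibroblasts (1.79). The comparisons differ in species, cell type, contrast and unit, and the differences between them were not tested.

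**Figure D5:**
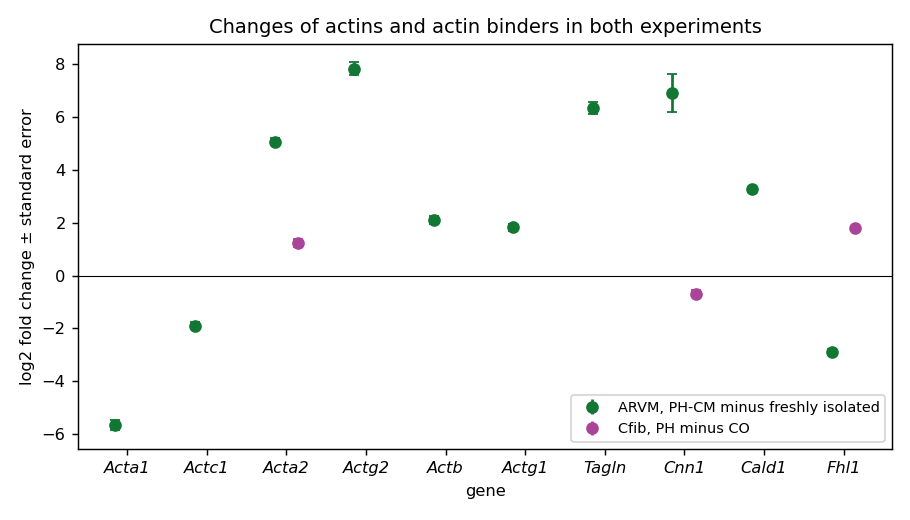
Log2 fold change with its standard error for each gene, in ARVM (PH-CM minus freshly isolated, green) and, where listed, in Cfib (PH minus CO, purple). Acta2 lies above 0 in both, while Cnn1 and Fhl1 lie on opposite sides of 0.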

How the data were processed

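RNA sequencing of 12 libraries was analysed, 6 of ARVM and 6 of Cfib. Per the paper's methods, the authors depleted ribosomal RNA, aligned rat reads to rn6 and bovine reads to bosTau8 with HISAT2 and StringTie, normalized with DESeq2 and kept genes over 1 in a condition. Genes selected by p are the only ones listed, so adjustment ran over selected genes. The ARVM values deposited by the authors are a signal equal to read counts over 1 size factor per library, and 100% of values were whole reads within 0.01. The deposited Cfib signal looks scaled by gene length, from the values alone, and its unit was not settled.

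limma 3.58.1 (R 4.3.3, trend, pseudocount 1) compared the groups. It was also run on simulated data in which most genes did not differ, unlike the listed genes here. That run therefore does not test its p-values on these lists. edgeR 4.0.16 and DESeq2 1.42.0 ran on the recovered reads as alternatives. Ratios used exact permutation tests (Python 3.11.15, scipy 1.17.1). Other alternatives were pseudocounts of 0.1 and 10, a minimum mean (50 for ARVM, 5 for Cfib), no trend, median of ratios, each library left out, a replicate block and averaged PH libraries in Cfib, equal totals, and a pseudocount in the ratio of Cnn1 without con4, the last 2 chosen after seeing the data. The genes and lists were chosen with earlier results of these data known. Named were all listed genes of the group, up to 3 called genes of largest change in each actin list, up to 3 of highest mean in each marker list, and the 5 nearest to Acta2 in pattern where the higher group averaged 10 or more. Others are marked, or named as members of a count. Intervals and floors cover counting error only, since reads are not independent molecules. Promoter sequences and positions are from RefSeq (GRCr8), while the authors' rat values were made on rn6. No bovine coordinates were used here.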

Additional observations from a re-analysis of the deposited data

Results flagged for a closer look

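Calponin and FHL1 drew attention because their changes had opposite signs in the experiments. That their libraries separated adds nothing, since no listed gene overlapped between groups in either experiment. How often other genes listed in both differed in sign is not given here. The log2 fold change of Cnn1 was 6.91 in ARVM kept in PH-CM and that of CNN1 was −0.68 in PH fibroblasts. Fhl1 was at −2.89 in ARVM and FHL1 at 1.79 in PH fibroblasts. The difference between the experiments was not tested, since they differ in species, cell type, contrast and unit.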

How the results depend on the processing

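In ARVM, 15 alternatives kept the direction and the call of all 10 genes (150 of 150 values), edgeR and DESeq2 included. Most listed genes also kept a call. Of all 7052, 5598 were called with equal totals, between 6452 and 6695 with 1 library left out, and 6668 with DESeq2. Leaving out a library could not reverse a direction, since no listed gene overlapped between groups. In Cfib, 14 alternatives kept 41 of 42 values, and the exception was CNN1 with averaged PH libraries (log2 fold change −0.68, adjusted p = 0.0769). That setting leaves 1 PH sample and called 1038 of the 2115 genes in place of 2063. Replicate numbers in Cfib are given by the labels without a stated meaning, and deviations of equal-numbered libraries correlated at 0.258, 0.0312 and 0.259, while CO library 2 correlated best with PH library 1 (0.102). With a replicate block the adjusted p was 0.000739 for ACTA2, 0.00193 for CNN1 and 7.36e-05 for FHL1, and 1983 genes were called. Of the 2115 listed genes, 1709 were called with the median of ratios and between 1910 and 2052 with 1 library left out. No paired analysis was possible for ARVM because its groups share no replicate number. A pseudocount of 1 in the ratios moved the shift of Acta2 to Actg2 from −2.97 to −2.77. For Cnn1 to Acta2 it also brought in con4, which has no read of Cnn1, and the shift went from 1.13 to 1.84. On the same 2 controls the pseudocount gave 0.90. The genes limited by depth were Actg2 and Cnn1, with at most 6 reads in a freshly isolated library.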
